A study of Mus musculus with 72 samples.

Results

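The core circadian clock genes described here are Bmal1 (also called Arntl), Npas2, Per1, Per2, Per3, Cry1, Nr1d1, Nr1d2, Dbp and Ciart. They are 10 of the 55416 Ensembl genes counted, and were chosen by name, through the Ensembl identifier of each symbol. Earlier results of these data were known when the list was made. Each was followed in 72 RNA sequencing libraries from epididymal white adipose tissue (eWAT), liver and pituitary of 24 adult male mice. Of the 10 genes, all passed the filter on low counts in eWAT and in pituitary. In liver 9 passed, since Npas2 had between 0 and 6 counts in the 24 libraries and 0 counts in 8 of them.

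The study asked how undernutrition of the mother alters the response of her sons to a fatty diet. The mice were of the FVB.129P2 strain, and no transgene, knockout or drug is named for any group. Their dams were either fed ad libitum (FED) or given 20% less food than a paired FED dam (CR20) from embryonic day 15 until the pups were weaned at day 21. From 8 weeks of age the sons ate a control diet with 10% fat (CTRL) or a high-fat diet with 45% fat (HFD) for 10 weeks, the duration that the study's text gives for the sequenced males. This gave 4 groups of 6 mice, named FED-CTRL, FED-HFD, CR20-CTRL and CR20-HFD. The same animal number marks the 3 tissues of a mouse. The litter of each mouse and the time of day at which tissues were taken are not given in the sources used here.

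The clock is a loop of transcription that runs with a period of about a day in nearly every cell. BMAL1 pairs with CLOCK or its relative NPAS2 and switches on genes that carry E-box elements, among them the Per, Cry and Nr1d genes, Dbp and Ciart. The PER and CRY proteins then block that activator, while the nuclear receptors encoded by Nr1d1 and Nr1d2 (REV-ERB alpha and beta) repress Bmal1 and Npas2 through ROR elements, so that activators and their targets peak at opposite times of day. In adipose tissue and liver the loop is coupled to the daily rhythm of feeding and lipid metabolism.

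Total counts ranged from 9842813 to 27601208 per library, with a median of 19705838.5, and liver libraries were the shallowest tissue by median. Levels below are CPM, counts relative to the library total after scaling with TMM factors within a tissue. Each tissue carried its own markers. All 7 adipocyte markers were detected in every eWAT library, all 7 hepatocyte markers in every liver library and all 7 endocrine markers in every pituitary library. In eWAT, the summed adipocyte markers were lowest in FED-HFD mouse 23 (10800 CPM) and CR20-CTRL mouse 5 (11770 CPM), against 23110 to 37820 CPM in the other 22. Markers of epididymis and testis, tissues that lie beside this fat pad, summed to 133.1, 52.16 and 26.65 CPM in eWAT of mice 4, 5 and 6 and to at most 0.1486 CPM in the others. Only 1, 3 and 4 of these 8 markers were detected in mice 4, 5 and 6. Summed macrophage markers, with all 12 of 12 detected, were 2839 to 12560 CPM in FED-HFD eWAT and 1855 to 2671 CPM in FED-CTRL eWAT, so that these groups did not overlap. In bulk tissue, fewer cells of a type and less RNA per cell cannot be told apart, and the part of these markers in the results below was not tested.

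The promoters of the 4 genes that passed the test in eWAT, and of Ciart, are shown because elements through which the loop acts may lie there. Each runs from 250 bases before the annotated start of the canonical transcript to 50 after it (GRCm39, GENCODE M39), 5′ to 3′ on the gene's strand. Capitals mark matches to a motif on either strand. The E-box, bound by the BMAL1 complex, was searched as CACGTG. A weaker variant of it, the E'-box, was searched as CACGTT. The D-box, which DBP and its relatives bind, was searched as TTATGTAA and in a second form that reads TTACGTAA. The ROR element was searched as TAGGTCA and also in the form TGGGTCA. No marked match overlaps another.
Nr1d1 promoter, chr11:98666110-98666409, minus strand: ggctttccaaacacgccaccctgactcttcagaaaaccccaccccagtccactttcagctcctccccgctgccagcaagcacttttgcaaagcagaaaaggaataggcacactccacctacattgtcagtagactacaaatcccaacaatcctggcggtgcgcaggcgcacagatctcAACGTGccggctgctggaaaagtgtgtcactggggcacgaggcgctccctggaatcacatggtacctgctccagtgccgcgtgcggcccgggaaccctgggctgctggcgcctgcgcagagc
Per3 promoter, chr4:151129091-151129390, minus strand: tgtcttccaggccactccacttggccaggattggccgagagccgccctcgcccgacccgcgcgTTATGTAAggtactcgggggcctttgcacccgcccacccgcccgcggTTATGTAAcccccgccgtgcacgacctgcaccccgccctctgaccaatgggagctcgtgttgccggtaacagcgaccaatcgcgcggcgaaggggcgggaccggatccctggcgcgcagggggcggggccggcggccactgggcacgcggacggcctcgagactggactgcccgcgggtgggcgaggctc
Dbp promoter, chr7:45354262-45354561, plus strand: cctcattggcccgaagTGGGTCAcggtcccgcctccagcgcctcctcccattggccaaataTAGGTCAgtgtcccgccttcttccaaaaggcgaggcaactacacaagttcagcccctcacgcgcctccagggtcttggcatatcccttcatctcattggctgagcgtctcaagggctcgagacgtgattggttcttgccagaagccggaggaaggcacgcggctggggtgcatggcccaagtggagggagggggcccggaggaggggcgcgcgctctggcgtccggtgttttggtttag
Npas2 promoter, chr1:39232984-39233283, plus strand: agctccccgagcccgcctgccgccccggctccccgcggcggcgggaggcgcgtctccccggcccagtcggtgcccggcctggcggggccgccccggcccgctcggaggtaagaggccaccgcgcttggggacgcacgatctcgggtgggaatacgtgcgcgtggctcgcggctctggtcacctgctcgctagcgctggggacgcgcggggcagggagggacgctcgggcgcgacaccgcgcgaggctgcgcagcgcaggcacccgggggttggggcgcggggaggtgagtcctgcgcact
Ciart promoter, chr3:95789507-95789806, minus strand: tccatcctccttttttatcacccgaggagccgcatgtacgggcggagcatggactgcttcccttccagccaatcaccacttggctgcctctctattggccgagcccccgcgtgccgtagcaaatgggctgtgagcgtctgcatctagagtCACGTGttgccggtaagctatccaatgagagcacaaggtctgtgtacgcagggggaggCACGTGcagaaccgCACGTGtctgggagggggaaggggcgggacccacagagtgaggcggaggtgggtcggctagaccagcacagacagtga
Over the 10 genes the E-box lay in the promoters of Per1, Cry1 and Ciart, and in 7.82% of 21757 protein-coding promoters of the same length. The E'-box lay in Per2, Cry1 and Nr1d1 (5% of all promoters). The D-box lay in Per2 and at 2 places in Per3 (1.07%), which begin 187 and 140 bases before the start. The ROR element lay at 2 places in Dbp (6.1%), beginning 234 and 189 bases before the start. Ciart held 3 E-boxes, beginning 100, 42 and 28 bases before its start. No match to these letters was found in the windows of Bmal1, Npas2 and Nr1d2, which says nothing of binding outside them.

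The clearest change of the clock genes was in eWAT of sons of FED dams on the high-fat diet. Compared with FED-CTRL, the repressor genes Nr1d1 and Per3 and the output gene Dbp fell in FED-HFD, and the activator gene Npas2 rose. These were 4 of 10 clock genes at an adjusted p under 0.05 (edgeR quasi-likelihood test, Benjamini-Hochberg over all genes), against 10.5% of the 15964 genes tested. In all, 7.81% of genes were called higher and 2.71% lower, against 1 and 3 of the 10. The median log2 fold change of the 10 was -0.582, against -0.00164 over all tested genes. At an unadjusted edgeR p under 0.05 were 8 of the 10, against 25.7% of all tested genes. Fold changes are given as log2 with the standard error (SE).

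Nr1d1 (ENSMUSG00000020889) had a lowest, median and highest eWAT level of 161.8, 181.7 and 209.7 CPM in FED-CTRL and of 59.91, 107.2 and 125.7 CPM in FED-HFD. Every FED-HFD mouse was below every FED-CTRL mouse. The log2 fold change was -0.81 (SE 0.18, adjusted p = 0.00658 in edgeR), and an exact two-sided permutation test of log2 CPM gave p = 0.0022, the smallest that 924 splits of 6 against 6 mice allow. The call was kept in all 24 fits that left out 1 mouse. Nr1d1 overlaps the thyroid hormone receptor gene Thra on the opposite strand, and the strand setting of the counting is not given in the sources used here. Thra itself fell by 0.59 on the log2 scale (edgeR adjusted p = 0.00297), so reads of the shared exons cannot be assigned to either gene with certainty.

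Dbp (ENSMUSG00000059824) encodes a PAR bZIP activator of D-box genes and is a classical clock output. Its lowest, median and highest levels were 42.01, 73.79 and 87.99 CPM in FED-CTRL and 20.84, 33.61 and 42.62 CPM in FED-HFD. The groups met only at 1 mouse, since 5 of 6 FED-HFD mice lay below all FED-CTRL mice. The log2 fold change was -1.11 (SE 0.31, edgeR adjusted p = 0.0247, exact permutation p = 0.00433). The call was lost in 4 of 24 fits that left out 1 mouse, namely FED-HFD mouse 13 or 23 or FED-CTRL mouse 14 or 41, where the change stayed between -1.22 and -1.01. Dbp shares exon sequence with Sphk2 on the opposite strand, which moved the other way (log2 fold change 0.54, edgeR adjusted p = 0.0181).

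Per3 (ENSMUSG00000028957), the third Period gene, ranged from 62.94 to 98.62 CPM in FED-CTRL (median 86.67) and from 29.61 to 66.48 CPM in FED-HFD (median 51.33). The ranges overlapped, with 4 of 6 FED-HFD mice below all FED-CTRL mice. The log2 fold change was -0.72 (SE 0.23, edgeR adjusted p = 0.0445). This call lay close to the threshold and was lost in 13 of 24 fits that left out 1 mouse, where the change stayed between -0.81 and -0.61.

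Npas2 (ENSMUSG00000026077), which can take the place of CLOCK beside BMAL1, was the least abundant of the 10 genes. It had 0 to 17 counts in FED-CTRL eWAT, with a lowest, median and highest level of 0, 0.504 and 0.859 CPM. The library of mouse 14 had 0 counts, which allows up to 0.149 CPM by counting error. FED-HFD mice had 12 to 187 counts and levels of 1.01, 1.59 and 8.58 CPM. The groups did not overlap, and the log2 fold change was 2.54 (SE 0.71, edgeR adjusted p = 0.0245). The highest value was that of mouse 23, the library with the lowest adipocyte and highest macrophage sums, and without that mouse the change was 1.74 and no longer passed (edgeR adjusted p = 0.138). The call was also lost without FED-CTRL mouse 16, 41 or 42.

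The other 6 clock genes did not pass the test in this comparison. Per1 (ENSMUSG00000020893), a Period gene that also responds quickly to hormones, was 61.55 to 93.76 CPM in FED-CTRL and 37.18 to 58.91 CPM in FED-HFD. These groups did not overlap, although the edgeR call was missed (log2 fold change -0.66, SE 0.29, adjusted p = 0.144). Of the 10 genes, Npas2, Per1 and Nr1d1 had groups that did not overlap, against 6.76% of all tested genes. Per2 (ENSMUSG00000055866) had a log2 fold change of -0.50 (SE 0.23, edgeR adjusted p = 0.173), and Nr1d2 (ENSMUSG00000021775) of -0.43 (SE 0.16, edgeR adjusted p = 0.0992). Ciart (ENSMUSG00000038550), a repressor of the BMAL1 complex, had a log2 fold change of -1.25 (SE 0.44, edgeR adjusted p = 0.0697). Its FED-CTRL mice were spread from 1.82 to 10.4 CPM while FED-HFD mice lay between 1.42 and 1.98 CPM. Ciart overlaps exons of the noncoding gene C920021L13Rik on the opposite strand (1971 counts against 10031 of Ciart over the 72 libraries), and reads shared by these genes cannot be told apart without the strand setting. Bmal1 (ENSMUSG00000055116) went from a median of 3.08 to 6.48 CPM with overlapping groups (log2 fold change 0.82, SE 0.45, edgeR adjusted p = 0.266). Cry1 (ENSMUSG00000020038), a cryptochrome of the repressor complex, had a log2 fold change of 0.20 (SE 0.17, edgeR adjusted p = 0.493).

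**Figure D1:**
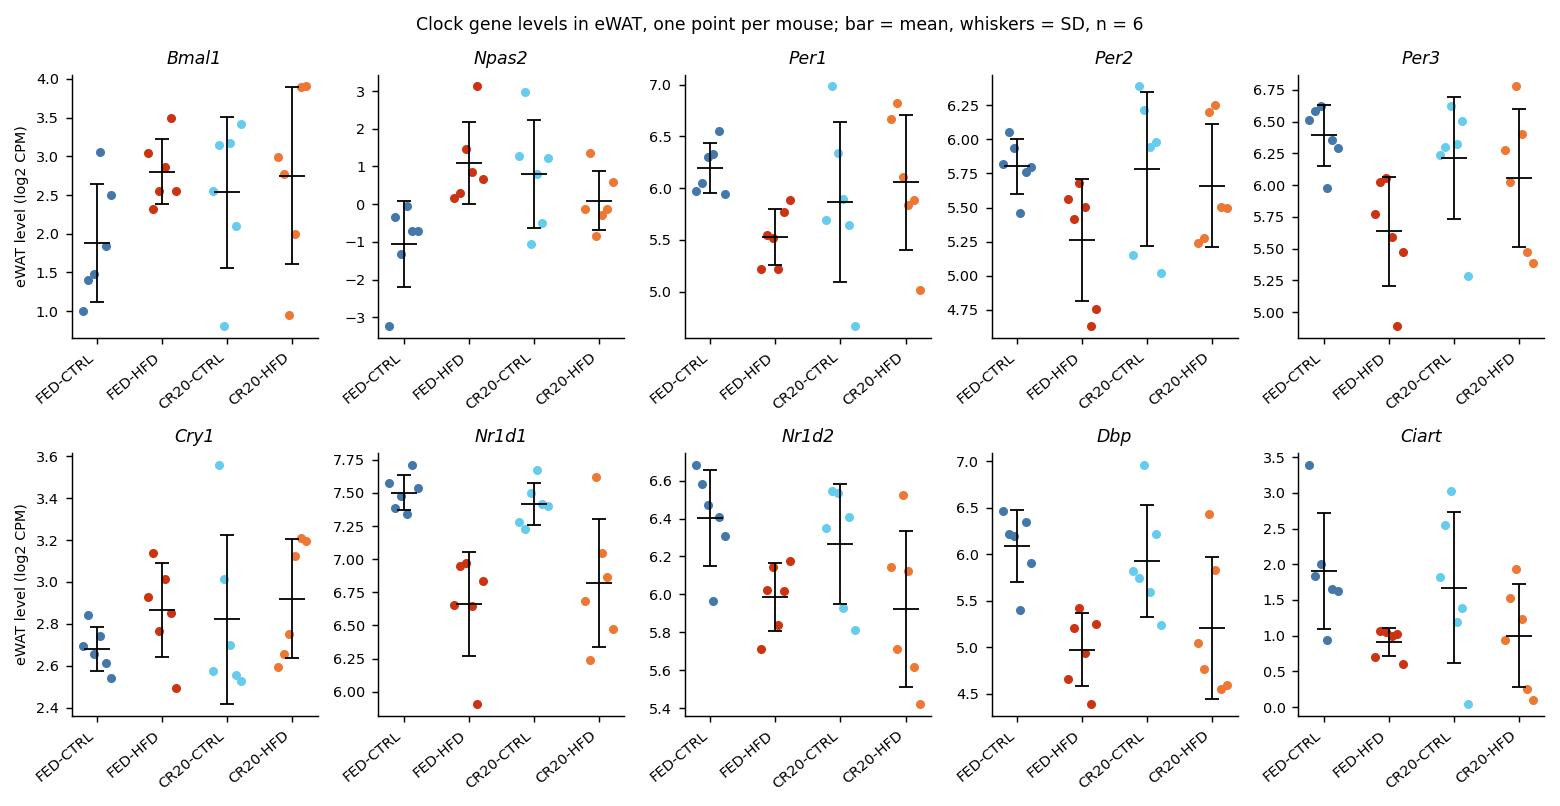
Level of each clock gene in eWAT (log2 CPM, own scale for each gene) in the 4 groups, with 1 point per mouse, a bar at the mean and whiskers of 1 SD (n = 6). FED-HFD points of Nr1d1 and Per1 lie below all FED-CTRL points and those of Npas2 lie above them.

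Mouse 23 had the lowest eWAT level of the 24 mice for Nr1d1 (59.91 CPM), Dbp (20.84 CPM), Per2 (24.74 CPM) and Per3 (29.61 CPM), and the highest for Npas2. Without the eWAT libraries of mice 5 and 23, whose adipocyte sums were lowest, only Nr1d1 of the 10 passed in FED-HFD against FED-CTRL (log2 fold change -0.69, edgeR adjusted p = 0.0113). Dbp then had -1.01 (adjusted p = 0.06), Npas2 1.75 (adjusted p = 0.0515) and Per3 -0.60 (adjusted p = 0.114) in the same edgeR fit.

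In eWAT of sons of CR20 dams the diet comparison gave no call for any clock gene, nor for any other gene (0% of 15964 in edgeR, where 962 genes and 2 of the 10 clock genes had an unadjusted p under 0.05, and DESeq2 called 1 gene). CR20-HFD mice had 75.54, 109.7 and 196.6 CPM of Nr1d1 (lowest, median and highest), against 150.2, 169.9 and 204.3 CPM in CR20-CTRL. Here 5 of 6 CR20-HFD mice lay below all CR20-CTRL mice and 1 lay among them. The log2 fold change was -0.53 (SE 0.18), with an unadjusted p of 0.00679 and an adjusted p of 0.789 in edgeR, and an exact permutation p of 0.0195. Dbp had medians of 29.99 and 54.95 CPM in CR20-HFD and CR20-CTRL, with overlapping ranges of 23.29 to 86.41 and 37.56 to 124.5 CPM (log2 fold change -0.65, SE 0.31, edgeR adjusted p = 0.828). Per3, Per2 and Per1 had log2 fold changes of -0.13, -0.15 and 0.14, each smaller than its SE. Without either of 2 single mice (CR20-HFD mouse 7 or CR20-CTRL mouse 49) the value of Per1 changed sign.

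The maternal groups differed in the diet response of 1 clock gene. The interaction, that is the diet change in sons of CR20 dams minus that in sons of FED dams, was -3.71 on the log2 scale for Npas2 (SE 0.98, edgeR adjusted p = 0.0466), against 2.29% of all genes called (0.0752% with a positive and 2.21% with a negative difference). Npas2 in CR20-CTRL ranged from 0.372 to 7.76 CPM (median 1.93), the highest again being a library with a low adipocyte marker sum (mouse 5), and in CR20-HFD from 0.445 to 2.48 CPM (median 0.809). CR20-HFD and CR20-CTRL overlapped fully. The interaction was lost in 19 of 24 fits that left out 1 mouse, in limma voom and with no low-count filter, and without mice 5 and 23 it was -2.14 (edgeR adjusted p = 0.207). For the other 9 genes the interaction lay between -0.49 (Bmal1) and 0.80 (Per1), and none passed.

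Averaged over both maternal groups, Nr1d1 in eWAT was lower on the high-fat diet by 0.67 on the log2 scale (SE 0.13, edgeR adjusted p = 0.028). It was the only clock gene of 10 to pass, against 0.251% of all genes (0.132% higher and 0.119% lower). Dbp was next with -0.88 (SE 0.22, adjusted p = 0.0785), then Ciart with -1.05 (SE 0.31, adjusted p = 0.109) and Nr1d2 with -0.37 (SE 0.12, adjusted p = 0.116). The Nr1d1 call was lost in 9 of 24 fits that left out 1 mouse, with changes from -0.77 to -0.61.

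Maternal restriction alone gave no call. In eWAT, 0 of 10 clock genes passed in CR20-CTRL against FED-CTRL (0% of all genes in edgeR), in CR20-HFD against FED-HFD (14.9%) or averaged over diets (6.68%). At an unadjusted edgeR p under 0.05 these comparisons held 1, 1 and 0 clock genes, against 7.39%, 29.8% and 24.3% of all genes. DESeq2 called Npas2 in the first. The largest difference between the control-diet groups was Npas2, higher by 2.36 in CR20-CTRL (SE 0.71, adjusted p = 0.285), in a comparison that shares the FED-CTRL mice with the one above. The only clock gene with an unadjusted p under 0.05 between the high-fat groups was Per1, with a log2 fold change of 0.62 (SE 0.29, adjusted p = 0.145).

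The list of 20 other clock genes and clock outputs in eWAT moved as follows in FED-HFD against FED-CTRL. Of the 19 that passed the filter, 5 were called, 1 higher and 4 lower. Of all tested genes 10.5% were called, 7.81% higher and 2.71% lower. Tef and Hlf, which encode the PAR bZIP relatives of DBP, fell by 0.80 (SE 0.18, edgeR adjusted p = 0.00591) and 0.92 (SE 0.22, adjusted p = 0.00903) on the log2 scale. Tef was 152.5 to 238.3 CPM in FED-CTRL and 82.58 to 138.6 CPM in FED-HFD, and Hlf was 14.36 to 23.53 and 6.38 to 13.67 CPM, without overlap in either gene. Rora, an activator that binds the same elements as the REV-ERB proteins, fell by 0.41 (SE 0.09, edgeR adjusted p = 0.00635), and the cryptochrome Cry2 by 0.55 (SE 0.16, adjusted p = 0.0308). Cry2 was 99.83 to 117.3 CPM in FED-CTRL and 31.49 to 95.83 CPM in FED-HFD, also without overlap. Of all tested genes, 6.76% had groups that did not overlap. Noct, an output gene that encodes a phosphatase of nicotinamide dinucleotides, rose by 0.69 (SE 0.20, edgeR adjusted p = 0.0288). The calls of Tef, Hlf and Rora were kept in all 24 fits that left out 1 mouse. Those of Cry2 and Noct were lost in 6 each, that of Cry2 without FED-HFD mouse 12 or 13 or FED-CTRL mouse 15, 16, 41 or 42, and that of Noct without FED-HFD mouse 13 or 23 or FED-CTRL mouse 14, 15, 16 or 41. The Cry2 call was also lost with no low-count filter or with only these groups fitted, and the Noct call without mice 5 and 23. The median change of the 19 was -0.351. Clock itself, with 0 edgeR calls in any tissue, was among the 14 that did not pass. In pituitary its log2 fold change in CR20-CTRL against FED-CTRL was the highest of this list (0.431, not called by edgeR). Hlf was the only one of the 19 to pass when averaged over maternal groups (log2 fold change -0.73, SE 0.15, edgeR adjusted p = 0.0428), against 0.251% of all genes. That call was lost in 14 of 24 fits that left out 1 mouse, where the change stayed between -0.80 and -0.67, and with no low-count filter.

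In liver no clock gene passed in any of the 7 comparisons. All-gene calls there were 0.109% for FED-HFD against FED-CTRL, 0.515% for CR20-HFD against CR20-CTRL, 1.74% for the diet averaged over maternal groups and 0% for the other 4. At an unadjusted edgeR p under 0.05, the diet comparison in sons of CR20 dams and the averaged one held 2 clock genes each and the others 0. Of all genes, 9.57% and 13.2% had such a p in the first 2. DESeq2 called no clock gene in liver. The largest fitted change was Bmal1 in CR20-HFD against CR20-CTRL, at 1.60 (SE 0.66, edgeR unadjusted p = 0.0236, adjusted p = 0.448). Its levels were 0.616, 2.58 and 8.86 CPM (lowest, median and highest) in CR20-HFD and 0.144, 1.03 and 2.12 CPM in CR20-CTRL, from as few as 2 counts in a library. These groups overlapped. Nr1d2 had a change of -0.58 in the same comparison (SE 0.23, edgeR adjusted p = 0.417). Liver Nr1d1 was 6.63 to 69.58 CPM in FED-CTRL and 15.64 to 51.7 CPM in FED-HFD, with a fold change of -0.47 and an SE of 0.60. With that SE, a change of the size seen in eWAT was not detectable in liver. None of the 18 other clock genes that passed the liver filter was called by edgeR.

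In pituitary no clock gene passed in any of the 7 comparisons either, where all-gene calls in edgeR were 0.024% for the averaged diet comparison and 0% for the other 6. Other tools called more genes, most of all in CR20-CTRL against FED-CTRL, with 371 in DESeq2 and 284 in limma voom with quality weights. At an unadjusted edgeR p under 0.05 each comparison held 2 to 6 of the 10 clock genes, against 6.23% to 17.3% of all genes. There were 2 in CR20-CTRL against FED-CTRL (17.3% of all genes), the interaction (11.0%) and the averaged diet comparison (6.23%). FED-HFD against FED-CTRL (9.64%) and CR20 against FED averaged (13.2%) held 3 each, and CR20-HFD against FED-HFD (6.77%) held 4. DESeq2 called 1 in each of 2 comparisons, Dbp in the averaged diet comparison and Cry1 in CR20-CTRL against FED-CTRL. Dbp came nearest. Its lowest, median and highest levels were 83.12, 125.5 and 156.4 CPM in FED-CTRL, 81.34, 90.93 and 98.52 in FED-HFD, 77.51, 104.9 and 139.1 in CR20-CTRL and 50.25, 79.37 and 91.79 in CR20-HFD. The HFD mice clustered at the lower end of the CTRL range, and the groups overlapped. Averaged over maternal groups the log2 fold change was -0.46 (SE 0.10) with an unadjusted p of 0.000101 and an adjusted p of 0.129 in edgeR. Nr1d1 had -0.35 in the same comparison (SE 0.11, edgeR adjusted p = 0.407).

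In CR20-HFD against CR20-CTRL, 6 of the 10 clock genes had an unadjusted edgeR p under 0.05 in pituitary, against 7.28% of all genes, and their smallest adjusted p was 0.548. Per3, Cry1, Nr1d1, Nr1d2 and Dbp had changes of -0.39, -0.37, -0.38, -0.31 and -0.47, and Per1 of 0.51. In CR20-CTRL against FED-CTRL Cry1 had 0.50 (SE 0.16, edgeR adjusted p = 0.12) and Per1 -0.58 (SE 0.23, adjusted p = 0.193). These 2 comparisons share the CR20-CTRL mice. Cry1 was 18.24 to 35.98 CPM in CR20-CTRL and 17.21 to 25.2 CPM in FED-CTRL, so the groups overlapped. None of the 20 other clock genes was called in pituitary by edgeR, while DESeq2 and limma voom with quality weights each called 3 in CR20-CTRL against FED-CTRL.

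**Figure D2:**
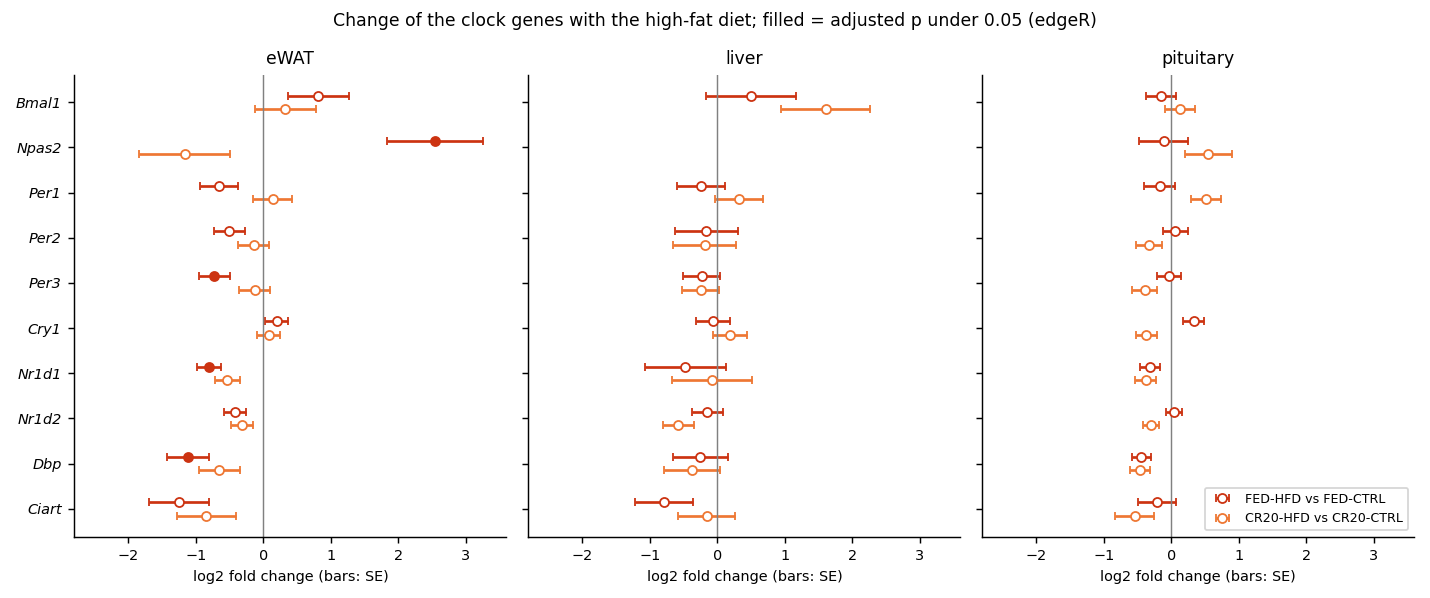
Log2 fold change of each clock gene with the high-fat diet in sons of FED dams (red) and of CR20 dams (orange) in eWAT, liver and pituitary, with bars of 1 SE and filled points for an edgeR adjusted p under 0.05. The filled points are those of Npas2, Per3, Nr1d1 and Dbp in eWAT of sons of FED dams, and liver Npas2 is absent because it did not pass the filter.

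A call in eWAT and none elsewhere does not show that the tissues differ, so the difference was tested in a fit of all 72 libraries. For FED-HFD against FED-CTRL, Npas2 was the only clock gene whose change differed, by 2.64 between eWAT and pituitary (SE 0.76, edgeR adjusted p = 0.0366), against 2.88% of all genes. With the mouse as a block in the fit, which is the paired analysis, it was 2.40 and did not pass (adjusted p = 0.0909). Between eWAT and liver no clock gene passed (4.1% of all genes), nor between liver and pituitary (0.0573%). For CR20-HFD against FED-HFD no clock gene passed either, between eWAT and liver (4.46% of all genes), eWAT and pituitary (3.81%) or liver and pituitary (0.00521%). The same held for the diet averaged over maternal groups (1.46%, 0.0312% and 0.484%). The responses of Nr1d1, Dbp and Per3 were thus not shown to differ between tissues. Of the other clock genes, the fall of Hlf was larger in eWAT by 0.81 than in liver (edgeR adjusted p = 0.0364) and by 0.88 than in pituitary (adjusted p = 0.0257), and both passed with the block as well. Usp2, which encodes a deubiquitinase of clock proteins, differed between eWAT and liver by 1.18 for CR20-HFD against FED-HFD (edgeR adjusted p = 0.0422), and with the block by 1.27 (adjusted p = 0.0509).

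Within a tissue the genes were ordered by CPM per kilobase of exon, so that long genes are not favoured. In eWAT the median order began with Nr1d1 (47.2 CPM per kb) and Dbp (13.1), followed by Nr1d2, Per1, Per2 and Per3 between 7.80 and 7.27, which did not differ beyond their spread over 24 mice. Cry1 (1.33), Ciart (0.848), Bmal1 (0.498) and Npas2 (0.171) were lowest. Liver was led by Dbp (25.4), Per2 (15.0) and Nr1d1 (12.5), whose ranges overlapped, and ended with Bmal1 (0.140) and Npas2 (0.0133). Pituitary was led by Nr1d1 (57.0), Dbp (26.1) and Per1 (14.9), and ended with Bmal1 (0.857) and Npas2 (0.296). In each tissue the repressor Nr1d1 and the output Dbp were thus among the 3 highest of the 10 per length and the activators Bmal1 and Npas2 the 2 lowest. The length counts all annotated exons of a gene together (11.57 kb for Bmal1), and the place of Bmal1 depends on it. By CPM without length, the median of Ciart lay below that of Bmal1 in eWAT (2.21 and 5.76 CPM) and in pituitary (4.71 and 9.92 CPM).

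Levels between tissues were compared in the 72-library fit, where 83.5% (eWAT and liver), 86.8% (eWAT and pituitary) and 89.6% (liver and pituitary) of all genes were called, so a call is no mark of clock genes. Liver RNA was extracted by another method than eWAT and pituitary RNA, and tissue and extraction cannot be told apart in comparisons with liver. Of the 10 genes, 9 differed between eWAT and liver, 8 between eWAT and pituitary and 9 between liver and pituitary. The Period genes had different orders. Per2 was highest in liver with a median of 136 CPM on the scale common to all libraries, against 39.4 in eWAT and 21.3 in pituitary, and liver was above pituitary by 2.71 on the log2 scale (SE 0.18). Per1 was highest in pituitary with 103 CPM, against 57.1 in liver and 48.5 in eWAT. Ciart was 21.8 CPM in liver, 4.24 in pituitary and 1.82 in eWAT, a log2 difference of 2.36 between liver and pituitary (SE 0.21).

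The activators were lowest in liver. Bmal1 had medians of 8.96 CPM in pituitary, 4.77 in eWAT and 2.26 in liver, and Npas2 of 1.44, 0.746 and 0.101 CPM. Nr1d1 had medians of 164 CPM in pituitary, 120 in eWAT and 55.2 in liver. Npas2 did not differ between eWAT and pituitary by the test (log2 difference -0.41, edgeR adjusted p = 0.133), although it passed with the mouse as a block (adjusted p = 0.0144). The signs of these differences were the same under all 5 scalings and fits that were run. Others were not. When libraries were scaled by their totals alone, the median of all genes shifted to 0.935 for eWAT minus liver and to -0.745 for liver minus pituitary. Per3 in eWAT minus liver then went from -0.60 (called) to 0.14 (not called), Dbp in liver minus pituitary from 0.40 (called) to -0.21 (not called), Nr1d2 in eWAT minus pituitary from -0.02 to 0.11 (neither called), and Per1 in eWAT minus liver from -0.06 (not called) to 0.71 (called). No order between tissues is therefore given for these pairs.

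**Figure D3:**
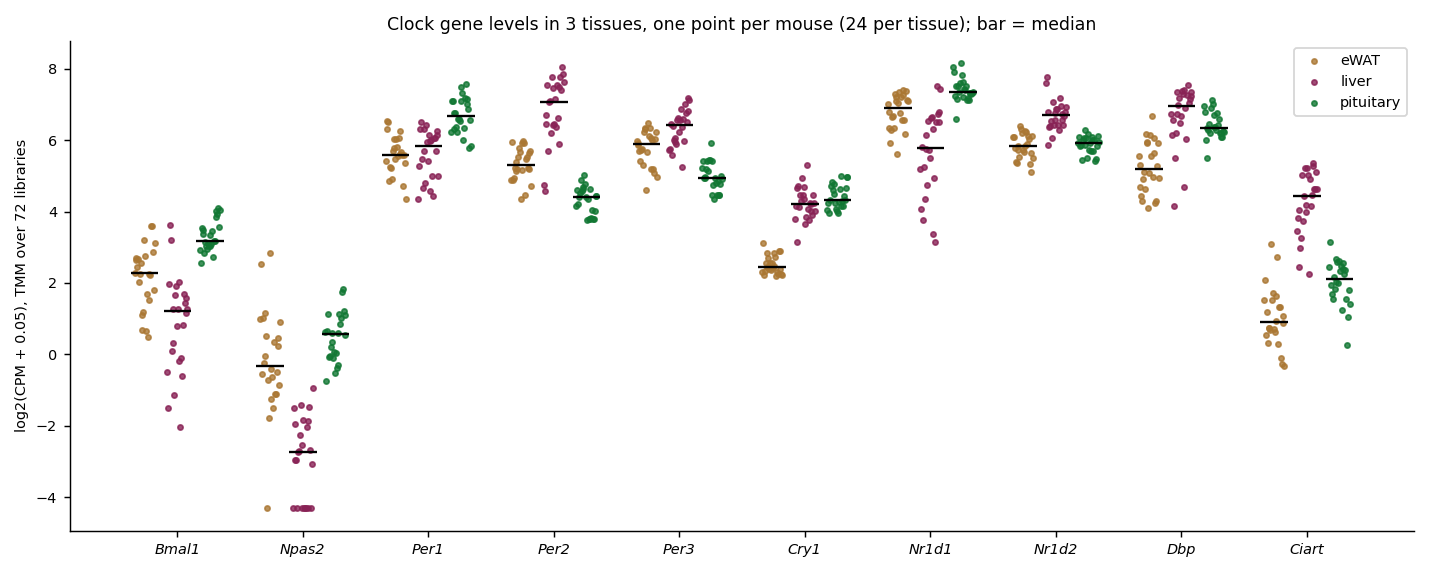
Level of each clock gene in eWAT, liver and pituitary, as log2 of CPM plus 0.05 with TMM factors over all 72 libraries, with 1 point per mouse (24 per tissue) and a bar at the median. Per2 and Ciart lie highest in liver, and Bmal1 and Nr1d1 highest in pituitary.

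Clock genes varied widely between mice of the same group, most of all in liver. The within-group SD of log2 CPM in liver was 1.28 for Nr1d1, 1.18 for Bmal1 and 0.981 for Per2, at the 99.2, 98.6 and 96.3 percentile of all tested genes, whose median SD was 0.405. Nr1d1 in liver ran from 6.63 CPM in mouse 41 to 135.1 CPM in mouse 45, a 20.4-fold range. Dbp ran from 13.03 CPM in mouse 7 to 136.0 CPM in mouse 45 (10.4-fold) and Per2 from 17.98 to 194.0 CPM (10.8-fold). In eWAT the widest were Npas2 (SD 1.14, 97.8 percentile), Bmal1 (0.868, 94.3) and Ciart (0.763, 91.5), while Nr1d1 (0.329) and Nr1d2 (0.301) lay near the median of all genes (0.303). In pituitary the SD of Dbp was 0.293 and that of Nr1d1 0.309, against a median of 0.223. Since the time of day of collection is not given in the sources used here, its part in this spread was not tested. For the same reason, its part in the differences between groups given above was not tested either.

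Within eWAT, mice with more Bmal1 had less of 6 of the 8 genes other than Npas2, with no such call for Per1 and Cry1. Over 24 mice Bmal1 and Dbp had a Pearson r of -0.872 and a Spearman rho of -0.851 (both permutation p = 1e-05, the smallest that 100000 resamples can give, adjusted p = 6.5e-05 for r over 26 relations). Without the 2 mice farthest from the median of Bmal1 r was -0.829. The lowest Bmal1 (1.65 CPM) and the highest Dbp (124.5 CPM) were both in CR20-CTRL mouse 33, and CR20-HFD mouse 45 had 14.75 CPM of Bmal1 with 23.29 CPM of Dbp. Taking deviations from the group means, r was -0.947. The animal numbers fall in ranges whose meaning is not given in the sources used here, and r was -0.813 in the 11 mice numbered under 20 and -0.929 in the 8 numbered 40 and above. With both group and range subtracted r was -0.876, and none of the 26 relations then had an adjusted p under 0.05 (smallest permutation value 0.0546). The sets of mice with the same group and range held only 1 to 4 mice, which limits what that test can call.

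Of the 26 relations with Bmal1, 13 had an adjusted p under 0.05 (permutation test, Benjamini-Hochberg over the 26). In eWAT these were Nr1d2 (r = -0.808, rho = -0.772), Per3 (-0.786, -0.828), Ciart (-0.765, -0.756), Nr1d1 (-0.579, -0.573) and Per2 (-0.543, -0.526) besides Dbp, all negative, and Npas2 (0.673, 0.702), which was positive. Their permutation p for r lay between 1e-05 and 0.00559. The signs were the same in both ranges of animal numbers and without the 2 farthest mice. Per1 (r = -0.310, rho = -0.323, permutation p = 0.143 and 0.125, adjusted p = 0.186 for r) and Cry1 (r = 0.225, rho = 0.190, permutation p = 0.291 and 0.372, adjusted p = 0.352 for r) did not pass in eWAT. In pituitary they were Npas2 (r = 0.761, rho = 0.707), Ciart (-0.748, -0.725), Dbp (-0.553, -0.662), Per3 (-0.540, -0.600) and Per2 (-0.519, -0.593), with permutation p between 2e-05 and 0.00967. Among the 8 mice numbered 40 and above, pituitary Per2 and Per3 had r of 0.298 and 0.134, so these 2 relations did not hold within that range. Genes of 1 library share that library's depth and scaling.

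Liver gave another pattern. Only Nr1d2 passed there (r = -0.606, rho = -0.547, permutation p = 0.00187 for r, adjusted p = 0.00608), with r of -0.699 without the 2 farthest mice and of -0.758 and -0.780 within the 2 ranges. Liver Per2 and Per1 had positive r with Bmal1 (0.446 and 0.407, adjusted p = 0.0506 and 0.0753). Liver Dbp had r = -0.450 and rho = -0.249 (permutation p = 0.0284 and 0.238, adjusted p = 0.0506 for r), but only -0.173 without the 2 farthest mice, and 0.869 in the 8 mice numbered 40 and above. That relation therefore rests on a few mice. The difference in r between tissues was not tested.

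**Figure D4:**
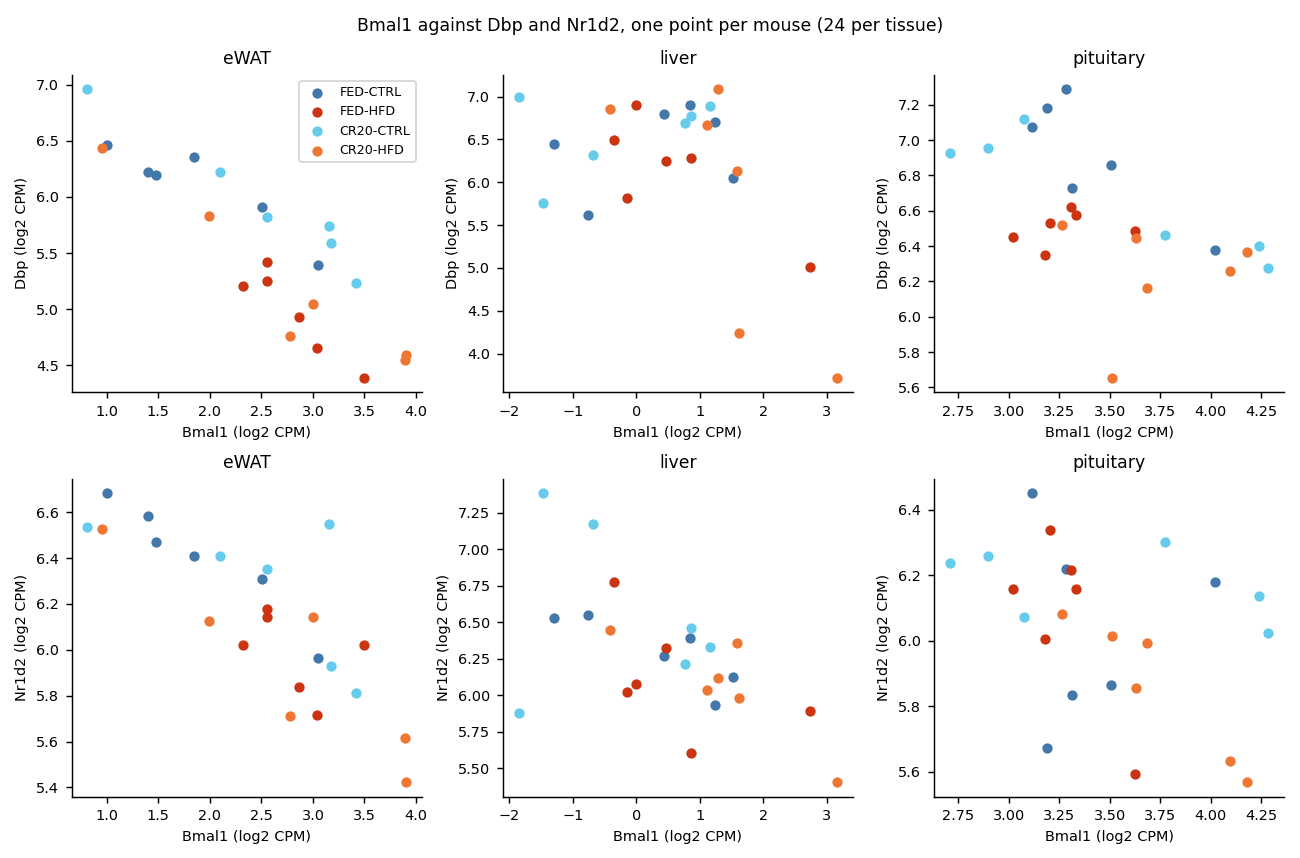
Dbp (upper row) and Nr1d2 (lower row) against Bmal1, all as log2 CPM, in eWAT, liver and pituitary, with 1 point per mouse (24 per panel) coloured by group. Dbp falls steadily with Bmal1 in eWAT (r = -0.872), whereas in liver r goes from -0.450 to -0.173 without the 2 mice farthest from the median of Bmal1.

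Clock gene levels were then correlated across tissues of the same mouse. Of 28 relations of a gene with itself in another tissue, 5 had an adjusted p under 0.05 (permutation test of Pearson r, Benjamini-Hochberg over the 28), and 4 of these joined eWAT with pituitary. They were Ciart (r = 0.624, rho = 0.569, p = 0.00124 and 0.00425), Dbp (r = 0.610, rho = 0.603, p = 0.0016 and 0.00221), Nr1d2 (r = 0.577, rho = 0.577, p = 0.0033 and 0.00355) and Bmal1 (r = 0.527, rho = 0.483, p = 0.00817 and 0.0182). Their adjusted permutation p for r were 0.0224, 0.0224, 0.0308 and 0.0458, and for rho 0.0316, 0.0316, 0.0316 and 0.102. Without the 2 farthest mice r was 0.629, 0.623, 0.428 and 0.466. Bmal1 was also linked between liver and pituitary (r = 0.539, rho = 0.567, permutation p = 0.00638 and 0.00451, adjusted p = 0.0447 and 0.0316). No gene passed between eWAT and liver.

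Within the ranges of animal numbers, these 5 relations stayed positive. For eWAT and pituitary, r in the mice numbered under 20 and in those numbered 40 and above was 0.757 and 0.542 for Ciart, 0.874 and 0.576 for Dbp, 0.516 and 0.692 for Nr1d2 and 0.175 and 0.750 for Bmal1. For Bmal1 in liver and pituitary it was 0.820 and 0.825. After subtracting the group means, r was 0.621 for Ciart, 0.595 for Nr1d2 and 0.591 for Bmal1 between eWAT and pituitary, and it was 0.425 for Dbp. Of these only Nr1d2 still had an adjusted permutation p under 0.05 (0.0414), and none did with the range subtracted too. The median r over all 28 relations was then 0.399, with 27 of them positive, against 0.218 with nothing subtracted. Since a mouse alone in its group and range has no deviation left, these values do not rest on a like number of mice. The median r over genes was 0.448 for eWAT and pituitary (10 genes), 0.196 for eWAT and liver (9 genes) and 0.176 for liver and pituitary (9 genes), and these medians were not tested against each other.

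**Figure D5:**
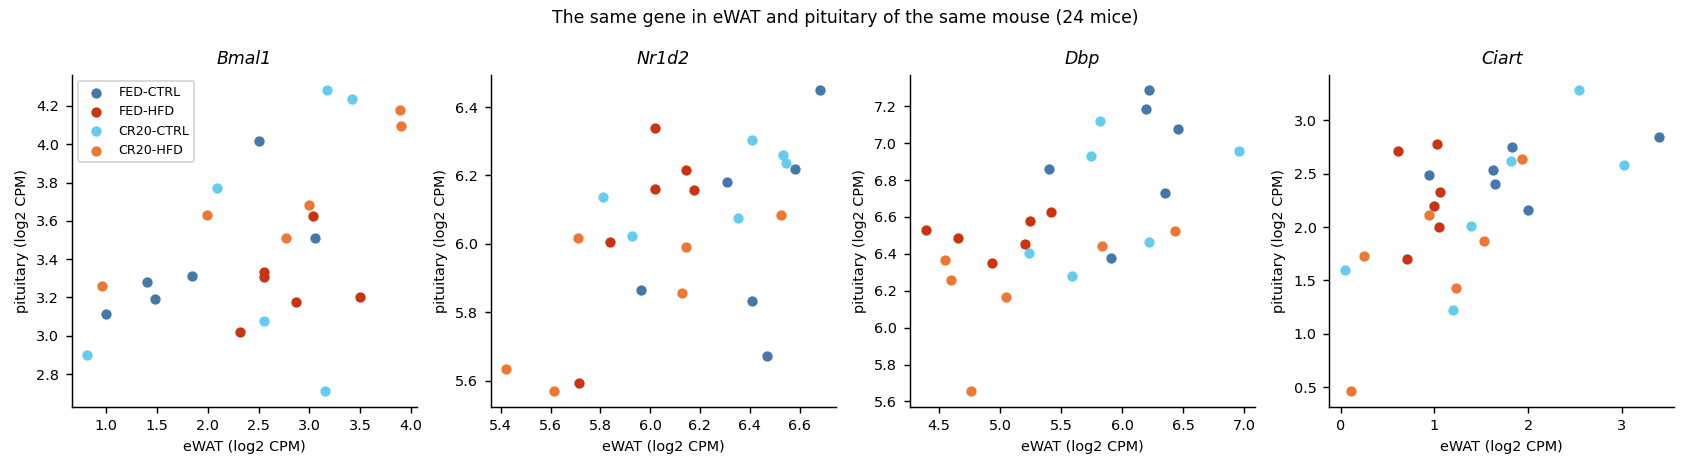
Level of Bmal1, Nr1d2, Dbp and Ciart in eWAT (x axis) and pituitary (y axis) of the same mouse, in log2 CPM with TMM factors within each tissue, with 1 point per mouse (24 per panel) coloured by group. Points rise together in each panel, with r of 0.527, 0.577, 0.610 and 0.624.

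Single mice show both agreement and disagreement between tissues. CR20-HFD mouse 7 had the lowest Dbp of all 24 mice in liver (13.03 CPM) and in pituitary (50.25 CPM), the lowest Nr1d1 in pituitary (107.8 CPM) and the highest Bmal1 in liver (8.86 CPM). CR20-CTRL mouse 33 had the lowest Bmal1 of all mice in eWAT (1.65 CPM) and in liver (0.144 CPM). The liver value is only 2 counts, against 3 counts in CR20-CTRL mouse 5, so that rank in liver is within counting error. CR20-HFD mouse 45, in contrast, had the second lowest Dbp in eWAT (23.29 CPM) and the highest in liver (136.0 CPM). CR20-CTRL mouse 5 had the highest Per2 in eWAT (83.57 CPM) and the lowest in liver (17.98 CPM).

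Genes outside the clock lists whose levels followed Dbp most closely were ranked by Pearson r of the deviations from the group means over 24 libraries, as a description and with no test. In eWAT, among 13676 genes, they were Slc5a6, a vitamin transporter gene (r = 0.888), Pcsk4 (0.861), St3gal4 (0.842), Smim5 (0.831) and Acot4 (0.823). The most opposed were Glrx (-0.910), Osgin1 (-0.909), Dtx4 (-0.867), Leo1 (-0.829) and Septin9 (-0.823). Among the clock genes themselves, Tef (0.895), Nr1d2 (0.827) and Per3 (0.816) were close to Dbp and Bmal1 (-0.947) was opposed. In liver, among 12144 genes, they were Arsa (0.868), Hook2 (0.785), Abcg8 (0.754), Thra (0.748) and Smoc1 (0.731), where Thra is the gene that overlaps Nr1d1, and the most opposed were Cyp4v3 (-0.820), Tfrc (-0.803), Clpx (-0.803), Shld2 (-0.781) and Dimt1 (-0.772). In pituitary, among 14249 genes, they were Fchsd1 (0.854), Wnk2 (0.807), Trib3 (0.783), Ror2 (0.774) and Stk32c (0.773), and the most opposed were Dclk1 (-0.858), Msmo1 (-0.814), Cyp51 (-0.807), Crem (-0.794) and Gnaz (-0.779). The 5 leading and 5 opposed genes of the 3 tissues had no name in common. Ciart (0.927) and Nr1d1 (0.834) in liver and Nr1d1 (0.872) in pituitary were the clock genes closest to Dbp there.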

How the data were processed

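RNA was sequenced from eWAT, liver and pituitary of the same 24 mice. The authors trimmed reads with Trimmomatic, aligned them to GRCm39 with STAR and counted them per Ensembl gene with Subread featureCounts, and the deposited values are raw counts, whole numbers with no normalization. The methods name 2 stranded kits, and the strand setting of the counting is not given in the sources used here. Of 55416 identifiers, 54749 were named with GENCODE M39 (GRCm39), and 667 had no match. Total counts were 9842813 to 27601208 per library, which leaves genes with few counts, such as Npas2, with wide counting error.

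Groups and animal numbers came from the labels. The 10 clock genes, the list of 20 other clock genes and the marker lists were chosen with earlier results of these data known. Each tissue was fitted with edgeR 4.0.16 in R 4.3.3 (limma 3.58.1): filterByExpr, TMM, glmQLFit and glmQLFTest over 24 libraries with 4 group means, Benjamini-Hochberg adjustment over all tested genes, and a call at an adjusted p under 0.05. The study's own test, limma voom with quality weights, and its thresholds were alternatives. Standard errors were derived from each log2 fold change and its quasi-likelihood F. Log2 CPM used a prior count of 2. Tissues were compared in a fit of 72 libraries, which shares 1 spread per gene over tissues and made more wrong calls on simulated data than the fits within a tissue. Correlations used permutation tests with 100000 resamples (scipy 1.17.1 in Python 3.11.15). Named genes are the 10 members, the other clock genes that were called, and per tissue the 5 genes with the highest and the 5 with the lowest r with Dbp, and Clock, Thra, Sphk2 and C920021L13Rik were added after their values were seen.

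Alternatives were limma voom with and without quality weights, DESeq2 1.42.0, DESeq2 size factors, other filters, robust fitting, only the groups compared, the ranges of animal numbers, each mouse left out, and the mouse as a block. Leaving out mice 5 and 23, and scaling by library totals between tissues, were chosen after seeing the data. Libraries with the same animal number come from the same mouse. Over all genes the median correlation of their deviations was 0.031, 0.037 and 0.051 for the 3 tissue pairs, against -0.002, -0.007 and -0.018 for different mice. Among 180 pairs of libraries within groups 0 were identical, and the smallest chi-square per degree of freedom was 8.22. The mice of a group are separate animals whose litters are not given in the sources used here, so that p-values measure the spread between these mice. Maternal restriction was applied to dams, so p-values of the maternal comparisons and the interaction do not measure the spread between dams.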

Additional observations from a re-analysis of the deposited data

Results flagged for a closer look

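In 116 groups of 6 mice, 1 per gene, tissue and group, 3 held a mouse that lay far from the other 5, where chance gives about 1 in 20. All 3 were low. Nr1d1 in FED-HFD eWAT was 59.9 CPM in mouse 23, the mouse with the lowest adipocyte marker sum. Nr1d1 in CR20-HFD pituitary was 108 CPM in mouse 7. Per3 in CR20-CTRL eWAT was 38.8 CPM in mouse 49.

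The change of Npas2 between the diets in eWAT differed between the maternal groups by -3.71 on the log2 scale (edgeR interaction, adjusted p = 0.0466). That call was lost in 19 of 24 fits that left out 1 mouse and in limma voom, and without mice 5 and 23 the difference was -2.14 and did not pass. The FED-HFD against FED-CTRL change of Npas2 was larger in eWAT than in pituitary by 2.64 (edgeR adjusted p = 0.0366), which did not pass with the mouse as a block (2.40, adjusted p = 0.0909). That of Hlf was more negative in eWAT than in liver (-0.81) and than in pituitary (-0.88), and both passed with the block. The CR20-HFD against FED-HFD change of Usp2 differed between eWAT and liver by 1.18, and did not pass with the block (edgeR adjusted p = 0.0509).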

How the results depend on the processing

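Of the counts of called genes outside the fits that left out 1 mouse, 345 of 374 kept their value within 1.5 times, and of the log2 fold changes within a tissue 635 of 662 kept direction and side of the threshold and 0 changed sign. Of 30 level differences between tissues 4 changed sign when libraries were scaled by their totals (Per3 and Per1 for eWAT and liver, Dbp for liver and pituitary, Nr1d2 for eWAT and pituitary). In FED-HFD against FED-CTRL eWAT the 4 called clock genes became 7 when only these groups were fitted, 1 without mice 5 and 23 and 2 with a log2 fold of at least 1, and the list of other clock genes had 8 with voom quality weights. Averaged over maternal groups, the diet called 3 clock genes in DESeq2 and 3 with quality weights, and 0 with a log2 fold of at least 1. Of the other list it called 4 in DESeq2, 7 with quality weights and 3 without mice 5 and 23. The interaction called 0 with the range of animal numbers in the model, in voom with or without quality weights, with no low-count filter or without mice 5 and 23. DESeq2 called 1 clock gene in CR20-CTRL against FED-CTRL eWAT, 1 in the same pituitary comparison and 1 in the averaged pituitary diet comparison, where no low-count filter also gave 1. In CR20-HFD against FED-HFD eWAT the other list had 1 call in DESeq2, 2 with quality weights, 1 in plain voom and 1 without mice 5 and 23. In CR20-CTRL against FED-CTRL pituitary it had 3 in DESeq2 and 3 with quality weights. Called relations between tissues fell from 5 to 1 with group means subtracted and to 0 with group and range subtracted. Called relations with Bmal1 fell from 13 to 0 with group and range subtracted. Over the 28 relations between tissues the median r was 0.218 at first, 0.162 with group means subtracted and 0.399 with group and range subtracted. With both subtracted, mice were permuted only within the same group and range. These sets held 1 to 4 mice, and a mouse alone in its set has no deviation left. The calls and medians with both subtracted are thus not on a like footing with the others. The cause of these changes was not tested.

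With the mouse as a replicate block, the paired fit called 0 clock genes for the FED-HFD against FED-CTRL difference between eWAT and pituitary, in place of 1. It moved no other count of clock genes whose response differed, and gave 9, 9 and 8 clock genes for levels between tissues in place of 9, 8 and 9. Within a tissue each mouse has 1 library, so no block applies there.

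With each mouse left out, clock gene calls ranged from 1 to 5 (FED-HFD against FED-CTRL eWAT), 0 to 2 (averaged diet, eWAT), 0 to 1 (interaction, eWAT), 0 to 1 (CR20-CTRL against FED-CTRL pituitary) and 0 to 1 (averaged diet, pituitary). The other list ranged from 3 to 6, 0 to 3 (averaged diet), 0 to 1 (CR20 against FED averaged) and 0 to 2 (CR20-HFD against FED-HFD) in eWAT, and 0 to 2 in CR20-CTRL against FED-CTRL pituitary. The Per1 change in CR20-HFD against CR20-CTRL eWAT went from 0.14 to -0.04 without CR20-HFD mouse 7 and to -0.03 without CR20-CTRL mouse 49, and was at most 0.43, without CR20-CTRL mouse 5.

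Counts over all genes moved most between tools. In FED-HFD against FED-CTRL eWAT 1680 genes were called, against 3291 with quality weights. For the averaged eWAT diet comparison the numbers were 40 in edgeR, 1104 with quality weights, 553 in DESeq2, 349 without mice 5 and 23 and 17 with no filter. The interaction called 365 in edgeR, 824 in DESeq2, 144 with quality weights, 0 in plain voom and 172 without mice 5 and 23. DESeq2 called 143 in CR20-CTRL against FED-CTRL eWAT, where edgeR called 0. In the same pituitary comparison edgeR called 0, DESeq2 371, quality weights 284 and no filter 50, and in FED-HFD against FED-CTRL pituitary no filter gave 55 and DESeq2 19 in place of 0. The averaged liver diet comparison called 240 in edgeR, 895 with quality weights and 461 in DESeq2, and CR20 against FED averaged in eWAT 1066, 2183 and 1801. Depth limits Npas2 in all tissues and Bmal1 in liver, which rest on few counts.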
